A study of Homo sapiens with 45 samples.

Results

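Genes of the motile cilium were followed through motor neuron differentiation of H9, an established line of human embryonic stem cells. The set holds every protein-coding gene whose GENCODE symbol starts with CFAP, with DNAH or DNAI and a digit, with RSPH or with TEKT, together with FOXJ1, CCDC39 and CCDC40. It has 64 members among the 19791 protein-coding genes and 58233 genes in all of the expression tables. The cells had been grown for the days before day 0 as neuromesodermal progenitors in CHIR99021 (3 µM), bFGF (5 ng/ml), SB431542 (10 µM) and DMH1 (2 µM). On day 0 they were dissociated and replated in retinoic acid (RA, 100 nM) and SAG (500 nM), an agonist of the Hedgehog pathway, with ROCK inhibitor (10 µM) for the first 48 h. Polyadenylated RNA was sequenced from 3 libraries on each of 15 days, day 0 to day 15 without day 3. Day 0 is labelled control and every later day is labelled as treated, so treatment, replating and time cannot be told apart in any comparison with day 0.

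A motile cilium is built on an axoneme, a ring of microtubule doublets around a central pair of single microtubules. Dynein arms on the doublets pull neighbouring doublets past each other, and radial spokes, the central apparatus and tethers between doublets turn that sliding into a beat. FOXJ1 is a forkhead transcription factor that switches on the genes of this machinery together with factors of the RFX family. In the developing neural tube FOXJ1 is known from the floor plate, the ventral midline that secretes Sonic hedgehog, and later from ependymal cells, which line the ventricles.

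The members were sorted by role. There are 7 outer arm and 8 inner arm dynein chains, 8 radial spoke genes, 5 tektins and 7 genes of other microtubule inner proteins, which lie inside the doublets. A further 8 belong to the central apparatus and 7 to tethers, the spoke base and the regulation of the arms. CCDC39 and CCDC40 form the molecular ruler that sets the repeat along the doublet, CFAP298 and CFAP300 take part in dynein assembly, and 9 CFAP genes were left as other. Sorting by role used textbook knowledge and no measured value.

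The 45 libraries held between 22835854 and 39066286 expected counts. Levels of 1 gene across days are given as CPM, counts scaled to a common library size, and levels of different genes are compared only as TPM, transcript abundance corrected for gene length. All cells carry the label of embryonic stem cell derived neural progenitors. The summed level of 6 progenitor markers lay between 1172 and 4657 TPM in every library, while 7 motor neuron markers summed to at most 2.11 TPM up to day 2 and to between 107.4 and 119.4 TPM on day 8. The labels call the 3 libraries of a day biological replicates and say no more, so the p-values measure only the spread between these libraries.

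By level the members fell far apart. The highest mean TPM over all libraries was that of CFAP20, a conserved inner junction protein of the doublets that is also needed outside motile cilia, at 72.1 TPM. CFAP298 followed at 66.3 TPM, CFAP36 at 62.2 TPM, FOXJ1 at 29.5 TPM, CFAP97 at 21.3 TPM, CCDC40 at 13.5 TPM and CFAP410 at 12.7 TPM. CFAP20 moved little, from 55.0 TPM in its lowest library to 82.5 TPM in its highest. FOXJ1 ran from 2.82 to 92.1 TPM and CFAP126, a microtubule inner protein, from 0 to 42.9 TPM.

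**Figure D1:**
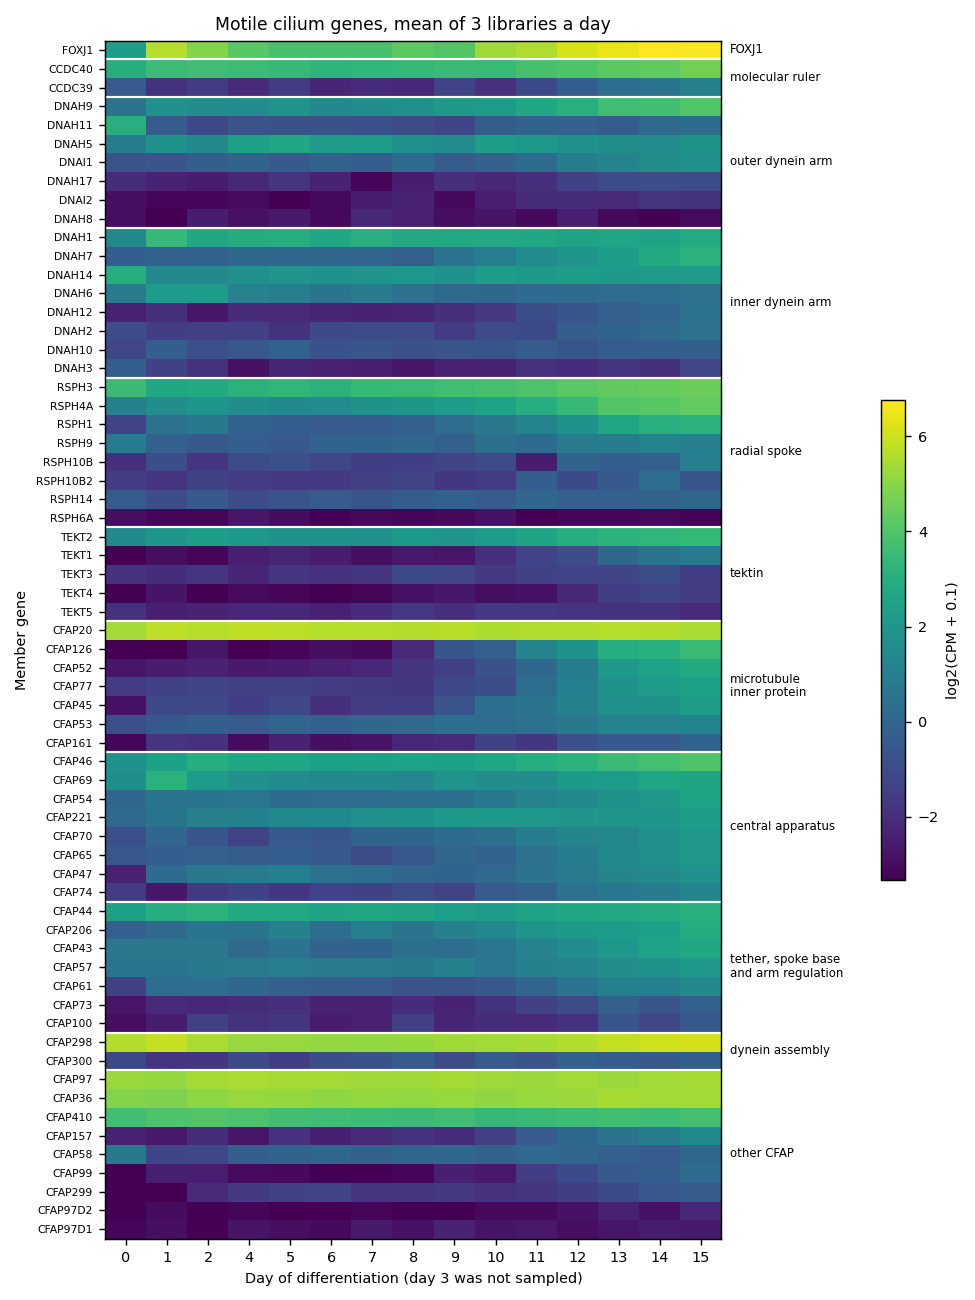
Mean level of the 64 motile cilium genes on each of 15 days (columns), as log2(CPM + 0.1) over 3 libraries a day, with the genes in rows grouped by role and the colour scale from dark (low) to yellow (high). Most rows brighten from about day 11 to day 15, while CFAP20, CFAP36, CFAP97, CFAP298 and CFAP410 are bright on every day.

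Day 15 had the highest day mean for 38 of the 64 members and day 14 for 7 more, and the other 19 peaked on earlier days. The default filter on low counts kept 58 members; a gene had to reach 0.305 CPM in 3 libraries. CFAP97D1, CFAP97D2, DNAH8, DNAI2, RSPH6A and TEKT5 did not reach it, DNAI2 and DNAH8 being an intermediate and a heavy chain of the outer arm. Of the 58, 12 reached the minimum in all 3 libraries of a day only after day 9 (CFAP52, CFAP73, CFAP77, CFAP99, CFAP100, CFAP157, CFAP161, CFAP299, DNAH12, DNAH17, RSPH10B2 and TEKT1), and TEKT4 did so on no day. Members low on day 8 that entered the test through later days had to differ between them. Late counts over the 58, and late p-values of such members, are therefore descriptions. The counts of days 9 to 15 against day 8 are also given over 38 members. These reached the minimum in all 3 libraries of day 8. Over the 15 days all 58 members changed by the quasi-likelihood F test, as did 91.5% of all 19436 genes tested.

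Promoter stretches of 7 members are shown, each with a match to a motif of the RFX factors. Among the members with a match, they are those that rose most from day 8 to day 15, and DNAH1, which was not called. RefSeq windows of 300 bases (GRCh38.p14, 250 before and 50 after an annotated start) were found for 55 of the 64 members. A gene could have several windows and was counted if any of them held a match. They were not in the table for CFAP157, CFAP300, CFAP54, CFAP73, DNAH17, DNAH3, FOXJ1, RSPH1 and TEKT2. The X-box, the 14 bases that RFX proteins recognise, was searched on both strands. A match lay in the window of 14 of the 55 members (25.5%), against 560 of 14878 protein-coding genes (3.76%) and 3.00% of all 35116 windows. These 7 runs have the matching bases in capitals and 8 bases on either side, each 5′ to 3′ on the strand given below.
CFAP52: gctcgtccGTTACCATAACGACcagaagac
TEKT1: cgtcacttGTTGTCATGGAGACcgcgttgt
CFAP45: gttgacgcGTTACCTTGGCAACcactagcc
DNAH12: ccgccacaGTTTCCATGGCGACgacgttgt
CFAP161: ggggccggGTCGTCATGGCGACgcgccacg
RSPH4A: tgcgtcctATCTCCATAGCAACcccaggcc
DNAH1: aggctgatGTTGCCATGGCAACccggatag

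The CFAP52 run is at chr17:9576619-9576648 on the plus strand and the TEKT1 run at chr17:6831740-6831769 on the minus strand. CFAP45 has its run at chr1:159900163-159900192 on the plus strand, opposite to the gene, and DNAH12 at chr3:57544364-57544393 on the minus strand. CFAP161 has it at chr15:81134251-81134280 on the plus strand, RSPH4A at chr6:116616465-116616494 on the minus strand, opposite to the gene, and DNAH1 at chr3:52316206-52316235 on the plus strand. The first 6 of these genes rose from day 8 to day 15 and DNAH1 was not called, so a match was found with and without a late rise. Of the members at least 2-fold higher on day 15, 11 of 33 with a window held a match, against 3 of the other 22. Among the 11, CFAP52, CFAP100, CFAP161, DNAH12 and TEKT1 reached the minimum of the filter only after day 9. The other 22 include members that were not tested. The split is therefore a description, and a link of the motif to the late rise was not tested. The forkhead motif TGTTTAC, also searched on both strands, was in the windows of CFAP126, CFAP43, TEKT1 and DNAH9, 4 of 55 members (7.27%), against 3.79% of protein-coding genes. In TEKT1 it does not overlap the X-box match. The DNAH9 match (chr17:11882666-11882688) and the X-box match of CFAP161 lie inside these genes, far from their GENCODE starts. Such a match is a description of the letters and not a bound site.

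FOXJ1 (ENSG00000129654, chr17:76136333-76141299 on GRCh38) was high early and again late. On day 0 the libraries held 4.85, 4.62 and 5.51 CPM, and on day 1 they held 49.5, 46.5 and 52.4 CPM. All 3 libraries of day 1 lay above all 3 of day 0, with a log2 change of 3.31 (SE 0.224, 9.90-fold, adjusted p = 1.9e-14, edgeR). The level then fell by 1.49 on the log2 scale to day 4 (17.6 ± 0.845 CPM, SD, n = 3, adjusted p = 1.36e-07) and lay between 12.4 and 21.8 CPM in every library from day 5 to day 9.

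The late rise opened between day 9 and day 10. FOXJ1 stood at 15.56, 21.8 and 13.1 CPM on day 9 and at 36.6, 38.9 and 44.6 CPM on day 10, a log2 change of 1.25 (SE 0.194, adjusted p = 1e-05). It reached 111, 108.5 and 107.5 CPM on day 14 and 106.6, 124.9 and 78.3 CPM on day 15. From day 8 (20.3, 19.1 and 16.5 CPM) to day 15 it rose 5.53-fold (log2 2.47, SE 0.193, adjusted p = 1.7e-12), and no library of day 8 reached the range of day 15.

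**Figure D2:**
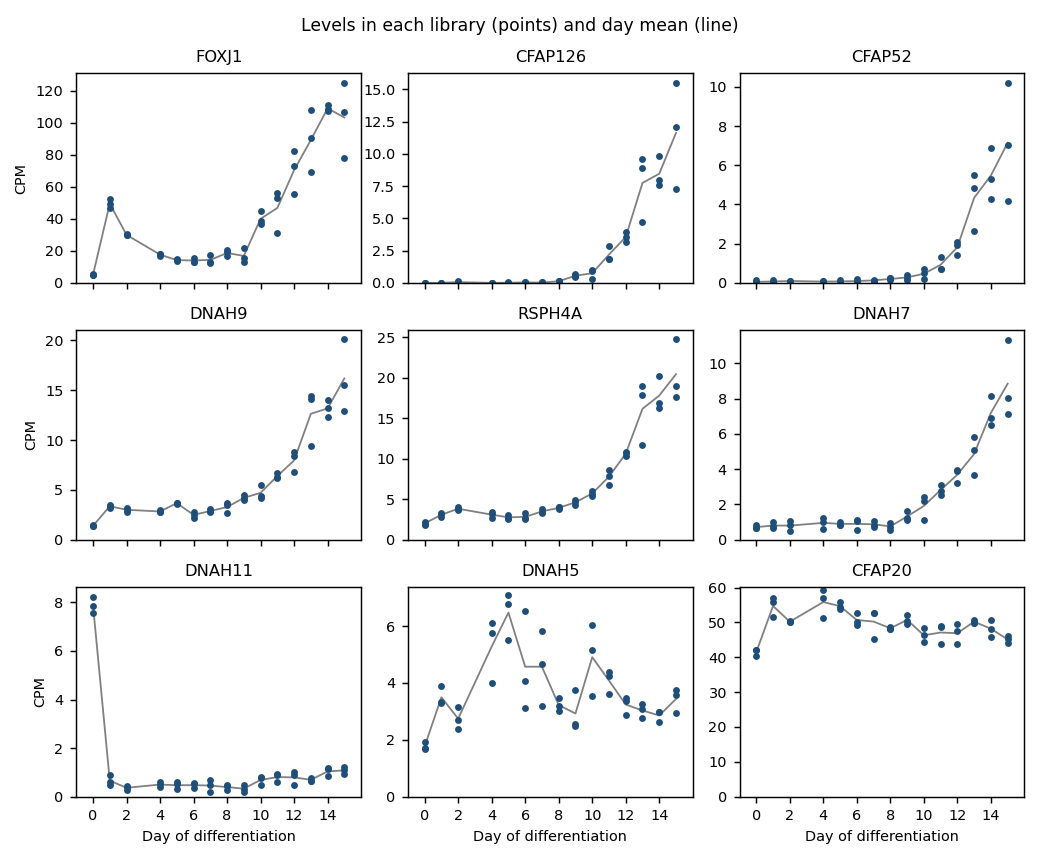
CPM of 9 motile cilium genes (panels) against day of differentiation, with a point for each of the 3 libraries of a day and a line through the day means; each vertical axis starts at 0. FOXJ1 has an early peak on day 1 (49.5 CPM) and a late one on days 14 and 15 (109 and 103.3 CPM), CFAP126, CFAP52, DNAH9, RSPH4A and DNAH7 are highest on the late days, DNAH11 is highest on day 0, and DNAH5 and CFAP20 have no late rise.

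From day 0 to day 1 the members moved in both directions. Of the 58 tested, 25 rose, against a background of 30.1% of all genes tested called higher, and 9 fell, against 31.7% called lower (34 in all, against 61.7%). At least 2-fold higher were 14 members, against 10.6% of all genes, and at least 2-fold lower 7, against 10.4%.

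Radial spoke, ruler and dynein genes went both ways within their own groups on day 1. Among the inner arm chains DNAH1 had 2.36, 2.51 and 3.34 CPM on day 0 and 11.3, 10.0 and 11.4 CPM on day 1 (log2 1.99, SE 0.132, adjusted p = 3.18e-16), while DNAH14 fell from 7.73 ± 1.57 to 2.73 ± 0.363 CPM (SD, n = 3). RSPH1, a spoke head protein, had 0.273, 0.275 and 0.372 CPM on day 0 and 1.16, 1.36 and 1.26 CPM on day 1, while RSPH3 and RSPH9 fell by 0.82 and 1.18 on the log2 scale. CCDC40 rose by 0.65 on the log2 scale and CCDC39 fell by 1.84, although their proteins work as a pair. In each of these cases the libraries of the 2 days did not overlap.

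Of the 8 central apparatus members 6 rose on day 1 and 1 fell, CFAP74, from 0.235 ± 0.126 to 0.0587 ± 0.0357 CPM, against 30.1% and 31.7% of all genes. CFAP47 had 0.0606, 0.0611 and 0.155 CPM on day 0 and 0.896, 1.30 and 0.952 CPM on day 1, an 11.0-fold difference at low level (log2 3.46, SE 0.365, adjusted p = 1.22e-10). CFAP69 rose from 3.20 ± 0.651 to 8.83 ± 0.348 CPM. CFAP61, a calmodulin- and spoke-associated protein at the spoke base, rose from 0.295 ± 0.0682 to 1.14 ± 0.431 CPM, and the unassigned CFAP58 fell from 1.59 ± 0.389 to 0.330 ± 0.0902 CPM.

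DNAH11 (ENSG00000105877, chr7:21543215-21901839), an outer arm heavy chain, was the member with the deepest early fall. It had 8.24, 7.86 and 7.55 CPM on day 0 and 0.896, 0.598 and 0.476 CPM on day 1, and it stayed low, with 1.07, 1.24 and 0.928 CPM on day 15. The log2 change to day 1 was -3.56 (SE 0.277, adjusted p = 3.75e-14). An exon of DNAH11 overlaps an exon of CDCA7L on the opposite strand, and the strand used for counting is not given in the sources used here. CDCA7L stood at 109.7 ± 2.17 CPM on day 0 and 72.2 ± 1.95 CPM on day 1, and its part in the DNAH11 level was not tested.

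Further factors and gene lists moved as follows on day 1, beside FOXJ1. Of 7 RFX genes tested 4 rose and 2 fell, against 30.1% and 31.7% of all genes. RFX4 rose from 17.9 ± 6.11 to 116.8 ± 2.35 CPM, RFX2 from 10.53 ± 1.40 to 39.2 ± 2.17 CPM and RFX3 from 28.3 ± 1.14 to 50.8 ± 1.68 CPM, all 3 known from ciliated cells. Of 7 Hedgehog target genes 6 rose, among them GLI1 from 21.0 ± 1.17 to 78.0 ± 3.72 CPM. The floor plate list was split: FOXA1, SPON1 and CORIN rose, FOXA2 fell from 1.28 ± 0.299 to 0.271 ± 0.0579 CPM, and SHH was at or below 0.199 CPM in all 6 libraries. The list summed to between 105.7 and 126.4 TPM on day 0 and to between 268.8 and 276.2 TPM on day 1. The other axonemal lists went different ways, where 30.1% of all genes were called higher and 31.7% lower. Of 6 outer arm docking genes 0 rose and 3 fell, and of 6 further dynein chains 0 rose and 2 fell. Of 10 genes of the nexin-dynein regulatory complex 2 rose and 4 fell, and of 8 in the central apparatus list 2 rose and 2 fell. Of 13 dynein assembly factors 4 rose and 3 fell, and of 22 other motile axoneme genes 10 rose and 6 fell.

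**Figure D3:**
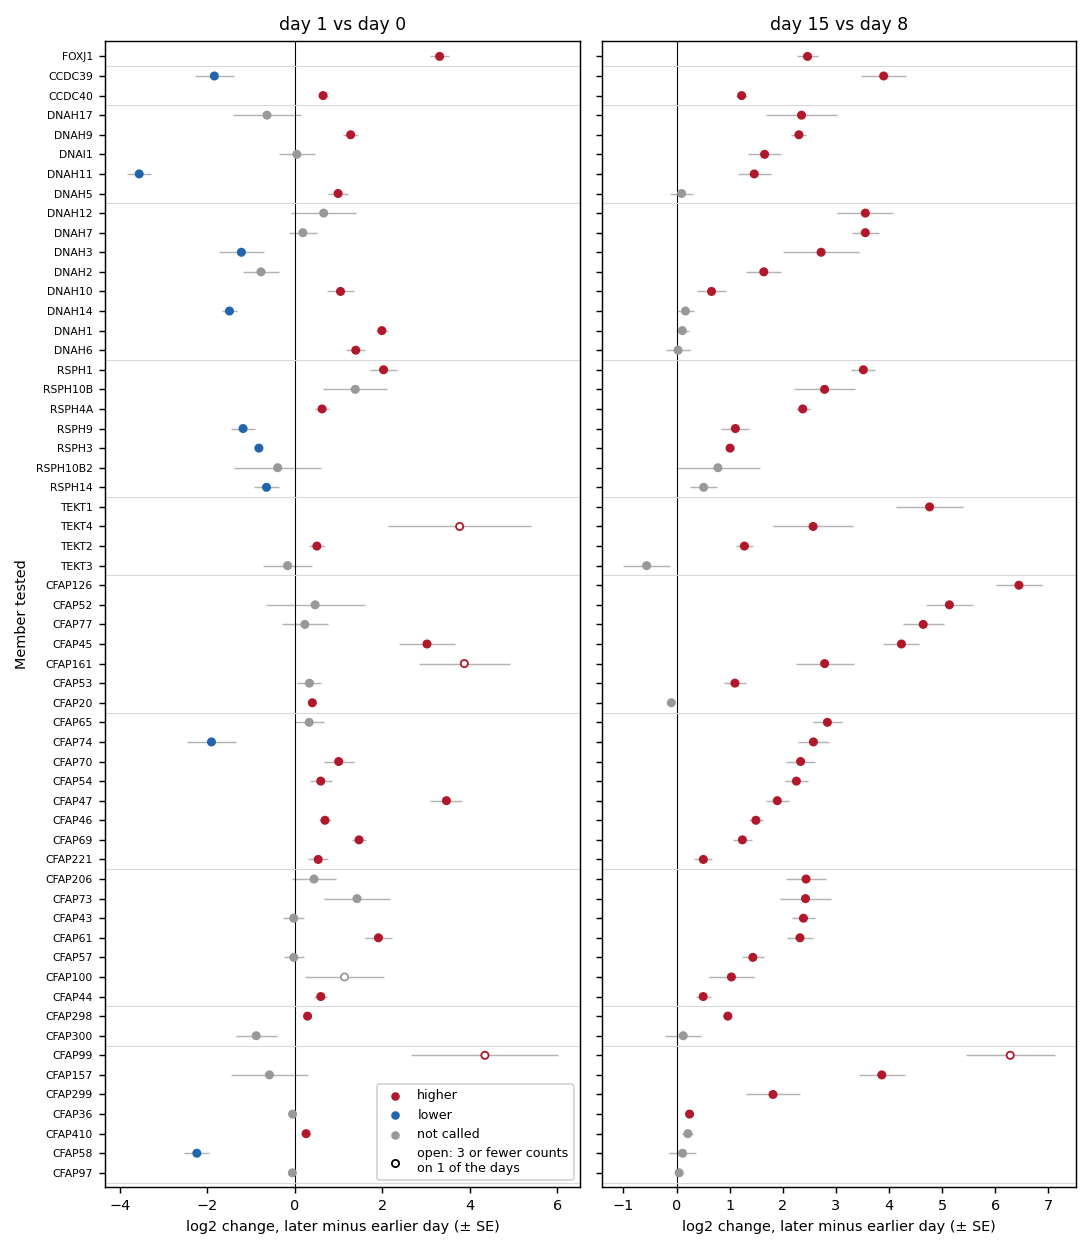
Fitted log2 change of each of the 58 tested members (rows, grouped by role) with its SE, from day 0 to day 1 (left) and from day 8 to day 15 (right); colours mark calls at an adjusted p under 0.05, open circles have 3 or fewer counts on 1 of the days, and a member with 3 or fewer counts on both days is not drawn. The left panel has 25 members to the right and 9 to the left of 0 among those called, and the right panel has 46 and 0.

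Between day 1 and day 8 fewer members were called, and the count in each step lay below the share of all genes. From day 1 to day 4, 9 of 58 members rose (24.4% of all genes) and 8 fell (22.8%), 17 against 47.2%. At least 2-fold higher were 3 (7.56% of all genes) and at least 2-fold lower 6 (6.04%). Beside FOXJ1, CFAP69 fell from 8.83 ± 0.348 to 3.37 ± 0.347 CPM, DNAH6, an inner arm chain, from 4.68 ± 0.641 to 2.13 ± 0.472 CPM, and CFAP298 from 59.2 ± 1.78 to 37.0 ± 1.21 CPM. RSPH3 rose from 6.53 ± 0.141 to 8.73 ± 0.124 CPM and CFAP36 from 28.5 ± 2.34 to 37.3 ± 0.668 CPM. The rise of CFAP47 to 1.64 ± 0.237 CPM was lost without replicate 1 (adjusted p = 0.139), without replicate 3 (0.152), with DESeq2 (0.0517) and without the filter (0.0587), and that of DNAH5 without replicate 1 (adjusted p = 0.232) or replicate 2 (0.0784).

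From day 4 to day 8, 7 members rose (27.1% of all genes) and 7 fell (26.0%), 14 against 53.2%. At least 2-fold higher were 3 (10.0% of all genes) and at least 2-fold lower 0 (3.43%). RSPH3 rose again, to 10.9 ± 1.12 CPM, CFAP47 fell back to 0.895 ± 0.0912 CPM, and CFAP410 fell from 15.5 ± 0.669 to 11.8 ± 0.576 CPM. The count was 8 without replicate 1 and 9 without replicate 2. DNAH5, which had reached 7.11, 6.80 and 5.53 CPM on day 5, stood at 3.46, 3.19 and 3.02 CPM on day 8. Its fall from day 4 to day 8 was not called without replicate 1 (adjusted p = 0.0648) or replicate 2 (0.0596).

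From day 9 to day 10, the days of the renewed FOXJ1 rise, 6 members rose (15.9% of all genes) and 1 fell (13.7%), 7 against 29.6%. At least 2-fold higher were 4 (3.95% of all genes) and at least 2-fold lower 0 (1.14%). CFAP45, a microtubule inner protein, went from 0.505 ± 0.188 to 1.19 ± 0.108 CPM and DNAH14 from 3.43 ± 0.369 to 4.86 ± 0.675 CPM. CFAP410 fell by 0.31 on the log2 scale. The others that rose were CFAP74, DNAH5 and DNAH11. The count was 4 without any 1 of the replicate numbers, and CFAP45 (adjusted p = 0.124) and DNAH14 (0.109) were not called without replicate 1. CFAP410 was not called without replicate 2 (0.0791) or replicate 3 (0.346), nor DNAH14 without replicate 3 (0.063), DNAH5 without replicate 3 (0.0805) or DNAH11 without replicate 2 (0.194), whereas FOXJ1 was called each time. In the same step 6 of 8 floor plate genes rose and 0 fell, among them FOXA2 from 3.28 ± 1.17 to 9.75 ± 2.72 CPM and SHH from 21.0 ± 4.48 to 46.6 ± 11.3 CPM.

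More members were called on each later day. Against day 8, 4 of 58 members were higher on day 9 (6.90%, against 10.5% of all genes), 9 on day 10 (15.5% against 15.6%) and 27 on day 11 (46.6% against 14.3%). On day 12 there were 36 (62.1% against 17.6%), on day 13 there were 39 (67.2% against 20.3%) and on day 14 there were 42 (72.4% against 21.6%), with DNAH1 lower. These comparisons share the day 8 libraries, and days 9 to 13 were added after the data had been seen. Over the 38 members past the minimum on day 8 the counts were 3 on day 9, 7 on day 10, 17 on day 11, 21 on day 12, 24 on day 13 and 25 on day 14. Of the 16202 genes past it on day 8 the shares were 12.1%, 17.1%, 15.2%, 18.3%, 21.2% and 22.4% on these days. The share over the 58 members was near or below that of all genes up to day 10, and FOXJ1 was among the 9 of that day.

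**Figure D4:**
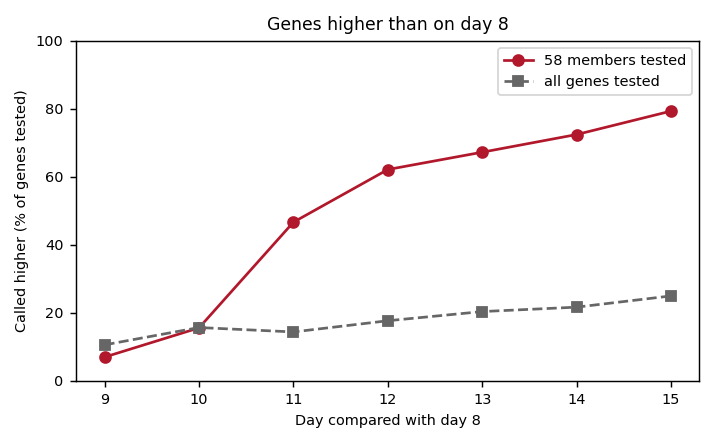
Share of genes called higher than on day 8 (vertical axis, percent of genes tested) on each of days 9 to 15, for the 58 tested motile cilium genes (circles) and for all 19436 genes tested (squares). The circles lie near the squares on days 9 and 10, reach 46.6% on day 11 and 79.3% on day 15, while the squares end at 24.9%.

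On day 15, 46 of the 58 members were higher than on day 8 and 0 were lower, against 24.9% of all genes called higher and 25.8% called lower (50.7% in all). At least 2-fold higher were 41, against 7.64% of all genes, and at least 2-fold lower 0, against 4.59%. The median log2 change was 1.74 over the 58 members and 0.0018 over all genes tested. Of the 38 members past the minimum on day 8, 27 rose, 22 of them at least 2-fold, against 25.8% and 5.28% of the 16202 genes that were past it on that day, and 0 fell, against 30.1%. In bulk RNA such a change can come from more cells of a kind or from more RNA per cell, which cannot be told apart here.

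The 5 members not at least 2-fold higher among the 46 were CFAP36, CFAP44, CFAP221, CFAP298 and DNAH10. All 3 libraries of day 15 lay above all 3 of day 8 for 47 of the 58 members, against 28.4% of all genes tested. Of the 46 called, DNAH17 was the exception, and 95.5% of all genes called higher had no overlap. Within even days, 42 members were higher and 1 lower on day 14 than on day 8, and within odd days 45 were higher and 1 lower on day 15 than on day 9 (22.0% of all genes called higher). Between odd and even days from 10 to 15, 19 members were higher on the odd days and 0 on the even days (5.69% and 9.77% of all genes, 15.5% in all), but the odd days lie on average 1 day later. By at least 2-fold there were 2 and 0 (0.149% and 0.123%). The count of 19 fell to 4 without replicate 1 and to 11 without replicate 2.

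The late libraries did not stand level. On day 15 replicate 2 held the highest value for 41 of the 46 members that rose and replicate 3 the lowest for 42. The order recurred, with replicate 2 highest for 26 and 36 of the 46 on days 13 and 14, and replicate 3 lowest for 36 and 24. On days 10, 11 and 12 replicate 2 was highest for 29, 30 and 23. Summed over the members other than FOXJ1 and the broadly expressed CFAP20, CFAP36, CFAP97, CFAP298 and CFAP410, the 3 libraries had 256.8, 308.3 and 206.1 TPM, against 71.2 to 81.0 TPM on day 8. Of the 58 members tested, 41 to 46 were called when each replicate number was left out in turn.

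Both rulers rose from day 8 to day 15 (24.9% of all genes). CCDC40 had 10.7, 10.7 and 9.90 CPM on day 8 and 26.0, 27.4 and 20.01 CPM on day 15 (log2 1.23, SE 0.106, adjusted p = 1.63e-12). CCDC39 had 0.0597, 0.254 and 0.0637 CPM on day 8 and 1.80, 2.69 and 1.44 CPM on day 15 (log2 3.90, SE 0.418, adjusted p = 3.4e-10). On day 15 CCDC40 was at 23.6 ± 0.813 TPM and CCDC39 at 1.27 ± 0.485 TPM, far apart also after correction for length.

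Of the 5 outer arm chains tested, 4 rose (24.9% of all genes). One of them, DNAH17, reached the minimum of the filter only after day 9, so its call is a description. DNAH9 (ENSG00000007174, chr17:11598431-11969748), the heavy chain of the distal part of the cilium, had 2.66, 3.44 and 3.72 CPM on day 8 and 15.5, 20.1 and 13.0 CPM on day 15 (log2 2.30, SE 0.141, adjusted p = 1.1e-16). DNAI1, an intermediate chain, rose from 1.05 ± 0.274 to 3.33 ± 1.11 CPM, DNAH11 from 0.390 ± 0.108 to 1.08 ± 0.155 CPM and DNAH17, a chain known from sperm, from 0.0765 ± 0.106 to 0.424 ± 0.198 CPM. DNAH5, the heavy chain that runs along the whole cilium and whose loss causes primary ciliary dyskinesia, had 3.46, 3.19 and 3.02 CPM on day 8 and 2.96, 3.77 and 3.59 CPM on day 15. Its libraries overlapped and its log2 change was 0.09 (SE 0.21, adjusted p = 0.74). The difference between DNAH9 and DNAH5 was not itself tested.

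Among the 8 inner arm chains 5 rose (24.9% of all genes). DNAH12, one of these, reached the minimum of the filter only after day 9, so its call is a description. DNAH7 (ENSG00000118997, chr2:195737703-196068812) had 0.746, 0.564 and 0.955 CPM on day 8 and 8.04, 11.4 and 7.16 CPM on day 15 (log2 3.55, SE 0.255, adjusted p = 9.81e-15). DNAH12 went from 0.108 ± 0.0399 to 1.33 ± 0.589 CPM, DNAH3 from 0.0512 ± 0.0384 to 0.349 ± 0.179 CPM, DNAH2 from 0.394 ± 0.111 to 1.25 ± 0.188 CPM and DNAH10 from 0.466 ± 0.0900 to 0.739 ± 0.0427 CPM. DNAH1, DNAH6 and DNAH14 were not called. DNAH1 had 6.73 ± 0.510 CPM on day 8 and 7.26 ± 0.930 CPM on day 15, so the inner arm member that led on day 1 had no late rise (log2 0.11, SE 0.12, adjusted p = 0.476).

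Of the 7 radial spoke genes tested, 5 rose (24.9% of all genes). RSPH4A (ENSG00000111834, chr6:116616479-116632985), a protein of the spoke head, had 4.03, 4.01 and 3.76 CPM on day 8 and 19.0, 24.7 and 17.6 CPM on day 15 (log2 2.38, SE 0.136, adjusted p = 1.53e-17). RSPH1, also in the spoke head, went from 0.763 ± 0.110 to 8.81 ± 2.50 CPM and RSPH3, in the stalk, from 10.9 ± 1.12 to 22.03 ± 0.821 CPM. RSPH1 shares exon sequence with SLC37A1 on the opposite strand, which stood at 23.2 ± 1.75 CPM on day 8 and 46.1 ± 4.06 CPM on day 15, and its part in the RSPH1 level was not tested. RSPH9 went from 0.904 ± 0.252 to 1.95 ± 0.586 CPM and was not called without replicate 2 (adjusted p = 0.0652, log2 0.61).

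RSPH10B and RSPH10B2 are near-identical copies: their longest transcripts had the same base at 3216 of 3220 aligned positions (99.88%). RSPH10B had 0.262 ± 0.175 CPM on day 8 and 1.87 ± 0.667 CPM on day 15, and RSPH10B2 0.332 ± 0.375 and 0.548 ± 0.446 CPM. Reads can be shared out between them in different ways in each library, so the split between the copies is uncertain.

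Among the 4 tektins tested, filament proteins inside the doublets, TEKT1, TEKT2 and TEKT4 rose (24.9% of all genes). TEKT1 (ENSG00000167858, chr17:6789133-6831761) had 0.0597, 0.0564 and 0.0637 CPM on day 8 and 1.45, 2.92 and 0.806 CPM on day 15 (log2 4.76, SE 0.638, adjusted p = 6.94e-08). TEKT1 entered the test only through later days, so its p-value is a description. TEKT2 went from 4.31 ± 0.484 to 10.48 ± 1.64 CPM and TEKT4 from 0.0424 ± 0.0735 to 0.259 ± 0.0773 CPM. TEKT3 had 0.381 ± 0.0678 and 0.256 ± 0.0523 CPM and was not called (adjusted p = 0.294).

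Of the 7 other microtubule inner proteins 6 rose (24.9% of all genes), and the median log2 change over the 7 was 4.23. Only CFAP20 and CFAP53 among them reached the minimum of the filter in every library of day 8. The median and the p-values of CFAP126 and CFAP52 below are therefore descriptions. CFAP126 (ENSG00000188931, chr1:161364731-161367874) had 0 counts in all libraries of days 0, 1 and 4 and at most 0.133 CPM on day 2, then 0.119, 0.141 and 0.127 CPM on day 8 and 12.1, 15.5 and 7.31 CPM on day 15. That is an 87.2-fold rise from day 8 (log2 6.45, SE 0.426, adjusted p = 8.16e-14). CFAP52 (ENSG00000166596, chr17:9576627-9643459) had 0.149, 0.226 and 0.223 CPM on day 8 and 7.05, 10.2 and 4.20 CPM on day 15 (log2 5.14, SE 0.441, adjusted p = 2.26e-12). CFAP77 rose 25.0-fold and CFAP45 18.8-fold, and CFAP161 and CFAP53 also rose, by 2.79 and 1.10 on the log2 scale.

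CFAP20 was the microtubule inner protein without a rise. It had 48.1, 48.2 and 48.6 CPM on day 8 and 44.0, 46.1 and 45.3 CPM on day 15 (log2 -0.10, SE 0.0556, adjusted p = 0.143). CFAP126 overlaps an exon of SDHC on the opposite strand, at 125.6 ± 1.49 CPM on day 8 and 117.9 ± 2.64 CPM on day 15. CFAP45 overlaps SNHG28 on its own strand, at 0 CPM on day 8 and 0.0692 ± 0.0383 CPM on day 15. The part of either neighbour in the level of the member was not tested.

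All 8 central apparatus members rose and so did all 7 of the tethers, spoke base and arm regulation (24.9% of all genes). Over both groups the smallest changes were those of CFAP44 and CFAP221 (log2 0.50 each). CFAP73 and CFAP100 reached the minimum of the filter only after day 9, so their calls are descriptions. CFAP46 had 5.91, 5.19 and 5.73 CPM on day 8 and 15.9, 18.5 and 13.0 CPM on day 15 (log2 1.49, SE 0.125, adjusted p = 6.43e-13). CFAP65 rose from 0.585 ± 0.213 to 4.19 ± 1.26 CPM, CFAP43, part of the tether of the inner arms, from 1.23 ± 0.356 to 6.45 ± 2.18 CPM and CFAP206 from 1.39 ± 0.248 to 7.52 ± 1.77 CPM. CFAP221 went from 3.45 ± 0.355 to 4.89 ± 0.171 CPM and was not called without replicate 2 (log2 0.38, adjusted p = 0.169), between days 14 and 8 (log2 0.13, adjusted p = 0.575), between days 15 and 9 (log2 0.24, adjusted p = 0.246) or on either TPM scale.

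The assembly factor CFAP298 had 36.7, 37.8 and 32.5 CPM on day 8 and 72.4, 78.3 and 58.4 CPM on day 15 (log2 0.97, SE 0.0865, adjusted p = 4.09e-12), whereas CFAP300 had 0.667 ± 0.0427 and 0.726 ± 0.127 CPM (adjusted p = 0.79). Of the 7 other CFAP genes tested, 4 rose (24.9% of all genes), namely CFAP36, CFAP99, CFAP157 and CFAP299. All of these but CFAP36 reached the minimum of the filter only after day 9, so their calls are descriptions. CFAP99 had 0, 0 and 0.0318 CPM on day 8, a single count, and 0.929, 1.45 and 0.831 CPM on day 15. The ratio of its counts was 107.1, with a 95% counting interval from 18.9 to 4266 that covers counting error only. CFAP99 shares exon sequence with RNF4 on its own strand, at 108.9 ± 1.3 CPM on day 8 and 96.7 ± 3.01 CPM on day 15. CFAP299 shares exon sequence with FGF5 on its own strand, which itself stood at 0.3625 ± 0.211 CPM on day 8 and 2.22 ± 0.0609 CPM on day 15. CFAP298 and CFAP206 likewise share exon sequence with AP000275.2 and AL049697.1 on their own strands. The part of these neighbours in the levels of the members was not tested. CFAP157 rose from 0.177 ± 0.0708 to 2.66 ± 1.19 CPM and CFAP36 by 0.24 on the log2 scale, while CFAP97 (40.5 ± 3.11 and 41.9 ± 1.49 CPM), CFAP410 and CFAP58 were not called.

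As a description over 15 day means of log2 CPM, the members whose course was most like that of FOXJ1 were RSPH1 (Pearson r = 0.953), CFAP161 (0.941), CFAP45 (0.928), TEKT2 (0.923) and CCDC40 (0.917). The points share days and libraries and are not independent.

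Lists of further genes were read from the same comparison of day 15 with day 8, in which 24.9% of all genes were called higher and 25.8% lower. Of the other axonemal dynein chains 6 of 6 tested rose, among them WDR78, from 2.94 ± 0.365 to 12.9 ± 1.79 CPM, and DNALI1, from 30.2 ± 2.06 to 67.8 ± 4.41 CPM. Of the genes of outer arm docking 4 of 6 rose and 1 fell (ARMC4, from 3.93 to 3.11 CPM), and of the dynein assembly factors 10 of 13 rose and 1 fell (DNAAF5, from 50.4 to 41.4 CPM). ARMC4 and DNAAF5 are named after their values were seen. DNAAF1 rose from 0.465 ± 0.101 to 4.12 ± 1.53 CPM and ZMYND10 from 1.44 ± 0.340 to 6.28 ± 2.16 CPM.

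In the nexin-dynein regulatory complex, the tether between doublets, 8 of 10 genes rose and 0 fell, led by DRC1 (0.448 ± 0.274 to 7.24 ± 1.65 CPM). In the central apparatus list 8 of 8 rose, led by SPAG6 (0.312 ± 0.101 to 7.55 ± 3.44 CPM), and of the other motile axoneme genes 21 of 22 rose and 0 fell. The median log2 change was 1.07 in the first of these lists, 1.55 in the second and 1.18 in the third. Genes of intraflagellar transport, which primary and motile cilia share, rose in 26 of 28 cases with 0 lower, but 0 of them by 2-fold, with a median log2 change of 0.40. IFT57 went from 43.5 ± 2.83 to 72.1 ± 1.75 CPM.

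Among the factors above the cilium genes, 4 of 7 tested RFX genes rose and 1 fell, the latter by at least 2-fold. The shares of all genes were 24.9% higher and 25.8% lower. RFX4 rose from 145.8 ± 3.55 to 315.9 ± 32.4 CPM, RFX3 from 71.8 ± 2.35 to 108.2 ± 5.70 CPM and RFX2 from 28.1 ± 1.97 to 40.5 ± 6.54 CPM. In the list of multiciliation inducers, which drive cells with many cilia, 1 of 7 tested genes rose and 4 fell. The one that rose was GMNC, with 0.0298, 0.0847 and 0.0637 CPM on day 8 and 0.348, 0.790 and 0.244 CPM on day 15. MCIDAS (0.0347 ± 0.0123 CPM on day 15), CCNO (0.0965 ± 0.0539), DEUP1 (0.193 ± 0.0184) and CDC20B (0.0081 ± 0.0141) were too low to be tested. The rest of the list is E2F4, E2F5, TFDP1, MYB, TP73 and FOXN4. These include the 4 that fell and hold nearly all of its sum on day 15, between 179.5 and 188.5 TPM. FOXN4 fell from 21.4 ± 1.76 to 11.8 ± 2.22 CPM, TP73 from 2.85 ± 0.201 to 2.08 ± 0.345 CPM and E2F4 from 59.0 ± 3.06 to 44.6 ± 3.19 CPM.

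**Figure D5:**
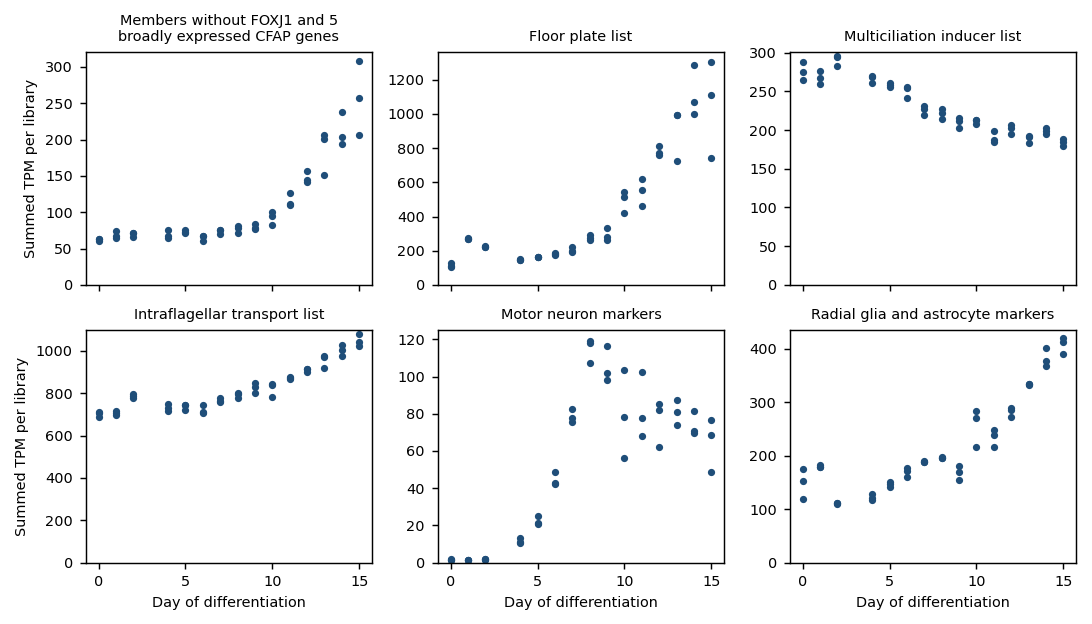
Summed TPM in each library (points) against day of differentiation for 6 gene lists, each axis starting at 0: the members without FOXJ1 and 5 broadly expressed CFAP genes, floor plate genes, multiciliation inducers, intraflagellar transport genes, motor neuron markers, and radial glia and astrocyte markers. The members go from between 71.2 and 81.0 TPM on day 8 to between 206.1 and 308.3 TPM on day 15, the floor plate list rises over the same days, and the motor neuron list peaks on day 8. The inducer panel sums a list that includes E2F4, E2F5, TFDP1 and MYB.

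Floor plate genes rose with the members. All 8 were higher on day 15 than on day 8, each by at least 2-fold, with a median log2 change of 2.85. FOXA2, a forkhead factor of the floor plate, went from 4.03, 3.27 and 2.93 CPM to 30.8, 33.3 and 18.4 CPM and SHH from 17.2, 17.0 and 15.2 CPM to 130.9, 165 and 71.9 CPM, with no overlap. The list summed to between 262.8 and 294.1 TPM on day 8 and to 1108, 1303 and 744.1 TPM on day 15, where replicate 2 was again the highest library and replicate 3 the lowest. The part of floor plate cells in the level of the members was not tested.

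Hedgehog targets did not follow as a list: 3 of 7 rose and 4 fell, NKX2-2 going from 1.51 ± 0.226 to 3.82 ± 1.45 CPM and GLI1 from 24.2 ± 1.62 to 15.0 ± 0.699 CPM. Of 9 markers of radial glia and astrocytes 7 rose and 2 fell, and their sum went from between 195.3 and 196.7 TPM to between 390.1 and 420.5 TPM. Of 5 choroid plexus markers tested 2 rose, with sums between 1.85 and 1.90 TPM on day 15 and KCNJ13 at 0 on both days. Motor neuron markers fell in 5 of 7 cases and rose in 2, from a sum of at least 107.4 TPM to between 48.6 and 76.7 TPM, and neural progenitor markers fell in 4 of 6 with 0 higher. Against 24.9% of all genes called higher and 25.8% lower, neuron markers rose in 2 and fell in 5 of 8, oligodendrocyte lineage markers rose in 1 and fell in 1 of 4, and markers of mesoderm, endoderm and endothelium fell in 2 of 5 with 0 higher.

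Markers of airway and germ cells, tissues in which motile axonemes are also found, were near 0. None of the 3 airway secretory markers could be tested, with sums of at most 0.27 TPM on day 15, and in the germ cell list only DAZL was tested, at 0 counts on day 8 and 0.158 ± 0.147 CPM on day 15. The sum of that list was at most 0.75 TPM on day 15. The part of each of these cell kinds in the rise of the members was not tested.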

How the data were processed

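The deposited expected counts are RSEM estimates by the authors, rounded here to whole numbers (92.5% of values already were), and the authors also deposited TPM, which RSEM corrects for transcript length. The tools, per the submitters' processing notes, were bcl2fastq 2.20.0 and RSEM, with GRCh38 as genome. Members that overlap other genes are uncertain, since aligner, annotation and strand were not given in the sources used here. Gene names, types and positions are from GENCODE 29, which has an identifier for 57895 of the 58233 genes. The mouse part was not analysed here.

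The members and lists were chosen with earlier results of these data known. Tests of the counts used the quasi-likelihood method of edgeR 4.0.16 under R 4.3.3 (TMM factors from 0.925 to 1.06, the default filter by day, robust fit with day as a factor, all 45 libraries, 30 residual degrees of freedom). Adjustment was by Benjamini-Hochberg across the 19436 genes tested, and an adjusted p under 0.05 was a call. The smallest p of an exact permutation test of 3 libraries with 3 is 0.1. CPM use TMM-scaled library sizes. For 1 to 3 counts in a group the ratio is given with its exact 95% interval. The steps were tested on simulated data.

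Named members are FOXJ1, CCDC39 and CCDC40. In each comparison up to 6 called members per direction with the largest change, a mean of 1 CPM or more on 1 of the days and no overlap of libraries are added. The rule adds the 10 with the highest mean TPM, the 5 most like FOXJ1, up to 3 genes of each list, and the RSPH10B copies. Other members are named within their role group, with their values in view. Alternatives were DESeq2 1.42.0, its size factors, no filter, a 2-fold minimum, a replicate term, only the days compared, each replicate number left out, limma 3.58.1 on log2(TPM + 1) and log2(TPM + 0.1), even or odd days only and, added after seeing the data, each of days 9 to 13 against day 8.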

Additional observations from a re-analysis of the deposited data

How the results depend on the processing

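Of 58 members, 46 were called from day 8 to day 15, and 37 to 46 under the other settings, 41 to 46 with a replicate number left out. Against day 8 the earlier days 9, 10 and 11 gave 4, 9 and 27. From day 0 to day 1 there were 34 calls, with 21 at 2-fold, 20 on log2(TPM + 1), 21 on log2(TPM + 0.1), and 23 to 31 with a replicate number left out. From day 1 to day 4 there were 17, with 9 at 2-fold, 8 and 11 on the TPM scales, and 12 to 17 with a number left out. From day 4 to day 8 there were 14, with 3 at 2-fold, 7 on log2(TPM + 1), and 8 to 13 with a number left out. From day 9 to day 10 there were 7, with 4 at 2-fold, on both TPM scales, and with any number left out. Between odd and even days there were 19, with 2 at 2-fold, 11 and 7 on the TPM scales, and 4 to 22 with a number left out. Over any of the 15 days 48 to 58 were called. The TPM scales tested 48 members in place of 58; the cause of the other differences was not tested. No called direction reversed among the members named by rule, which alone were checked. The earlier days against day 8 were left out of that check.

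Over all genes no comparison had every pair of samples with the same replicate number above a correlation of 0.1, so the numbers were not taken to pair the samples, although replicate 2 was the library with the most highest values of the members that rose on each of days 10 to 15. With a replicate block the counts of called members were 57, 33, 18, 16, 7, 45 and 21, for any day, day 1, day 4, day 8, day 10, day 15 and odd against even days. At this depth, members below about 0.1 CPM rest on a few counts per library.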
